A study of Mus musculus with 4 samples.

Results

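The cells described here are intratumoral T cells that carried RNA of Nr4a1 and Egr1 at the moment of capture. Both genes are switched on within a short time of T cell receptor engagement, and cells holding both are called signaled cells here. A cell was taken as signaled when it held at least 2 UMIs (unique molecular identifiers, each standing for 1 captured RNA molecule) of Nr4a1 and at least 1 of Egr1. It also had to show 200 to 3000 detected genes, at most 5% mitochondrial UMIs, at least 1 UMI of the CD3 genes Cd3d, Cd3e and Cd3g together, under 20 UMIs of Ccl5, no UMI of Foxp3 and at most 2 UMIs of the heat shock genes Hspa1a and Hspa1b together. Of 38860 barcodes called as cells, 97 met all limits: 35 and 38 in the sh-NC libraries, and 6 and 18 in the sh-B7-H3 (1) libraries.

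The libraries came from CD3+ T cells sorted by FACS from subcutaneous tumors of Tsc2-deficient 105K cells, a mouse renal tumor line, grown in wild-type C57BL/6J male mice that were 6 weeks old at injection. The tumor cells of every group lack Tsc2. The sh-NC group expressed a control short hairpin RNA with no target, and in the sh-B7-H3 (1) group the hairpin was directed at Cd276, which encodes the immune checkpoint protein B7-H3. Both were mixed pools of transduced cells and not single clones. Each group had 2 libraries (replicates 1 and 2) from 80 pooled tumors. A legend of the study describes both libraries as independent, but how tumors were divided between them is not given in the sources used here, so p-values measure only the spread between these libraries, which may be technical. The hairpin acts in tumor cells and the libraries hold sorted T cells, in which Cd276 gave 9 to 11 UMIs per library over all called barcodes and none in signaled cells, so the knockdown cannot be checked here. RNA and antibody-derived tags for surface proteins were counted in the same cells (CITE-seq).

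When a T cell receptor binds its ligand, calcium and MAP kinase signaling activate transcription factors that are already present, and these switch on immediate-early genes without new protein synthesis. NR4A1, an orphan nuclear receptor, and EGR1, a zinc finger factor, belong to that first set, and Nr4a1 is used as a reporter of receptor signaling because it responds little to cytokines alone. In tumors such cells are read as T cells that recently met a ligand. No library measures the ligand, so whether the stimulus was antigen was not tested.

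The limits on Nr4a1 and Egr1 fixed the levels of these genes, which are given as a description. Signaled cells held 2 to 17 Nr4a1 UMIs (median 3) and 1 to 26 Egr1 UMIs (median 4). After the gene, mitochondrial and CD3 limits 150 cells passed both; 15 of them had too much Ccl5, 40 had Foxp3 and 6 had too many Hspa1 UMIs, some for more than 1 reason. Just inside the Nr4a1 limit were 38 signaled cells with exactly 2 Nr4a1 UMIs, and just outside it 120 otherwise eligible cells with 1 Nr4a1 UMI and at least 1 Egr1 UMI. Summed over cells, Egr3 stood at 190 CPM (counts per 1000000 RNA UMIs) just inside and at 151 CPM just outside, and Cd69 at 547 and 480 CPM. Another 38 cells had at least 2 Nr4a1 UMIs but no Egr1. The upper gene limit matters for the count, since without it 153 cells would qualify, 57 and 59 in sh-NC and 13 and 24 in sh-B7-H3 (1).

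Signaled cells were compared with 11556 reference cells that passed the same limits but held no UMI of Nr4a1 or Egr1: 4821, 3823, 1250 and 1662 in sh-NC replicates 1 and 2 and sh-B7-H3 (1) replicates 1 and 2, the order used for all values below. Together with 2550 cells in between, they make up the 14203 eligible cells. Median depth was 8241, 9566.5, 7740 and 7942 UMIs in signaled cells, and 8160, 8656, 6967.5 and 7125 in reference cells. The 6 signaled cells of sh-B7-H3 (1) replicate 1 hold 53627 RNA UMIs in all, so there 1 UMI is worth 18.6 CPM, whereas the other libraries have 314424, 359936 and 156307. Droplets that may have caught more than 1 cell (doublets) were given a score but not removed, and 7.22% of signaled cells carried that score against 14% of reference cells. Of the 17 to 35 barcodes that each pair of libraries shared, 1 belonged to a signaled cell.

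RNA outside cells was read from droplets with at most 100 UMIs. Nr4a1 made up 18.4, 18.9, 17.2 and 12.1 CPM of it, against 5.9 to 9.85 CPM in eligible cells, and Egr1 made up 48 to 79.5 CPM against 38.4 to 48.1 CPM. Free RNA therefore holds both genes near or above the level of the average eligible cell. Egr3, which played no part in the rule, was at 328 to 550 CPM in signaled cells and 14.5 to 17.1 CPM outside cells. Jun was at 439, 244, 37.3 and 141 CPM in signaled cells and 277, 277, 283 and 173 CPM outside cells. Fos was at 66.8, 106, 18.6 and 160 CPM against 38, 39.2, 122 and 22.8 CPM, with libraries in the order given above. The part of free RNA in signaled cells was not tested.

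The summed level of myeloid markers was lower in signaled than in reference cells, and other lists were mixed. Of 11 myeloid markers 8 had a UMI in signaled cells, with Csf1r, Fcer1g and H2-Aa at 0, and their summed level was 28.6, 16.7, 261 and 64 CPM against 392, 328, 1983 and 1600 CPM in reference cells. The shares of cells with a myeloid UMI were close, at 21.6% of signaled and 24% of reference cells. NK markers were at 0, 8.33, 0 and 6.4 CPM with Ncr1 and Klra8 at 0, against 0.116 to 0.664 CPM, and rest on 4 UMIs in 2 cells. Of 6 tumor or stroma markers 2 had a UMI, and Krt8, Krt18, Col1a1 and Col3a1 were at 0; the list stood at 37.3 to 76.8 CPM, and at 47.1 to 53.5 CPM in reference cells, with a UMI in 41.2 and 32.3% of cells. The 2 gamma-delta markers were at 0, 58.3, 18.6 and 0 CPM against 18.7, 20.9, 27.7 and 24.7 CPM, lower in 3 of 4 libraries, and in sh-NC replicate 2 20 of 21 Trdc UMIs lay in 1 cell. Regulatory T cell markers other than Foxp3 stood at 41.3, 75, 522 and 57.6 CPM against 31.7, 34.6, 66.9 and 75.2 CPM, higher in 3 of 4 libraries, with a UMI in 21.6 and 10.7% of cells; the high value includes 14 Klrg1 UMIs of 1 cell. Their part in the results was not tested.

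Egr3, Egr2 and Nr4a3, the remaining early factors of the NR4A and EGR families, led all genes. Because the cells were chosen on RNA, levels of RNA in signaled against reference cells are a description with no test. The filter kept 4332 genes whose level averaged 20 CPM or more, of which 41 (0.946% of genes) were at least 1 log2 unit higher in signaled cells in all 4 libraries and 14 (0.323%) at least 1 lower, on the scale of log2(CPM + 1). The median gene stood at 0.05. Of all 4332 genes 755 were above 0 in all 4 libraries and 383 were below 0, the background for such counts in the lists below.

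**Figure D1:**
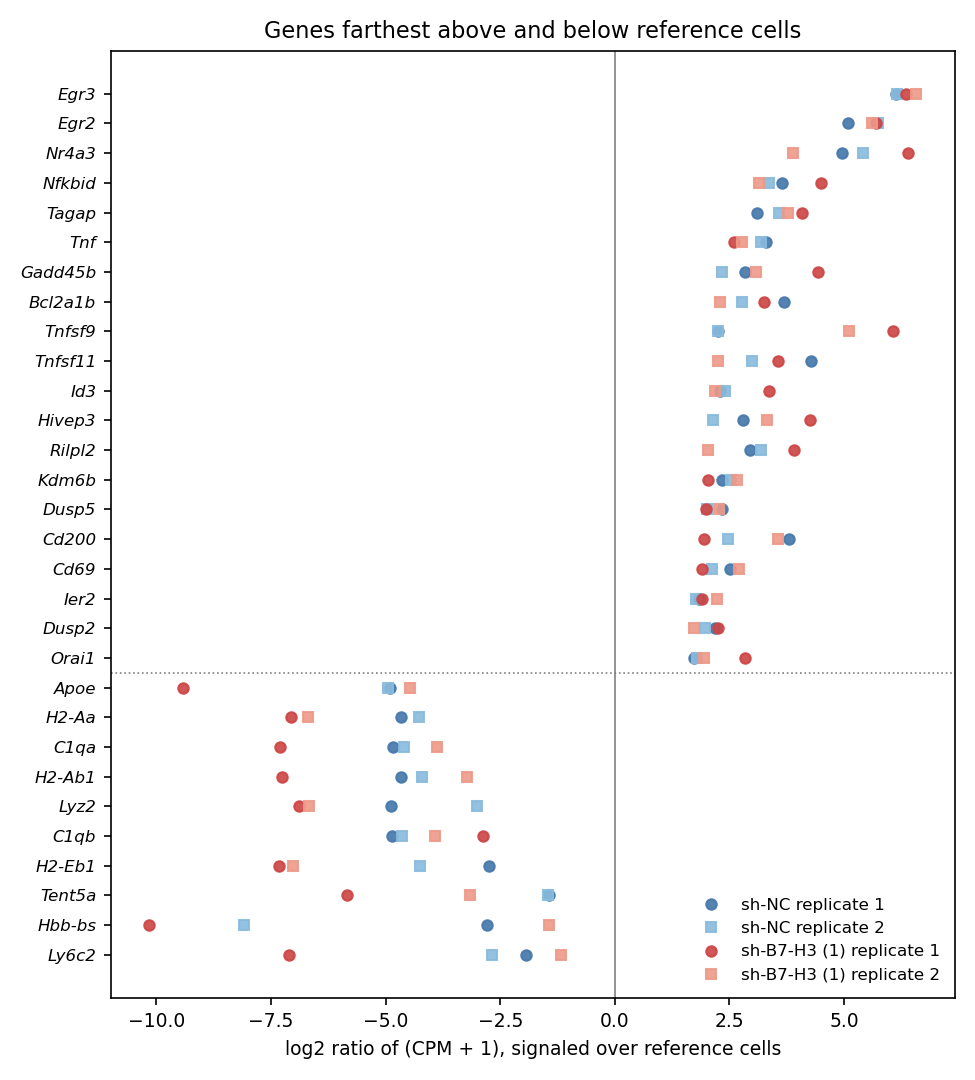
The plot shows, for the 20 genes farthest above and the 10 farthest below reference cells, the log2 ratio of (CPM + 1) in signaled over reference cells, 1 point per library. Egr3, Egr2 and Nr4a3 lie at the top, between 3.88 and 6.58, and several of the 10 lower genes had no UMI in signaled cells of some libraries, which puts their points far to the low side.

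Egr3, a zinc finger factor of activated and anergic T cells, was at 328, 389, 392 and 550 CPM in signaled cells and at 3.67, 4.48, 3.82 and 4.75 CPM in reference cells, a mean log2 ratio of 6.31 ± 0.21 (SD, n = 4 libraries). Egr2, its close relative, was at 92.2, 142, 93.2 and 147 CPM against 0.81 to 2.03 CPM (5.53 ± 0.31). Nr4a3, a paralog of Nr4a1, was at 79.5, 131, 354 and 57.6 CPM against 1.59 to 3.24 CPM (5.16 ± 1.04). In each of these the lowest signaled library lay above the highest reference library, and Nr4a3 varied most between libraries. Nr4a2, the third paralog, fell under the 20 CPM filter, with 12, 7, 1 and 1 UMIs in signaled cells. It was found in 10.3% of signaled and 1.07% of reference cells. Nab2, which binds and restrains EGR proteins, was at 127, 97.2, 37.3 and 70.4 CPM against 13.4 to 15.8 CPM (2.32 ± 0.78).

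Promoters of signaled-cell genes were searched for 4 motifs of factors that act downstream of receptor signaling, over 250 bases before to 50 bases after the start site (RefSeq, GRCm38.p6, both strands). The CArG box, bound by serum response factor, lies in 1.63% of all 32851 promoters, the EGR motif GCGNGGGCG in 5.55%, the AP-1 motif TGANTCA in 7.81% and the CRE motif TGACGTCA in 1.79%. Counted per gene, over 27025 genes, the shares are 1.81, 6.27, 8.97 and 2.03%. Of the 20 genes farthest above reference cells 15 had a promoter in the table, of which 2 held a CArG box (Egr2 and Dusp5), 5 an EGR motif (Tagap, Gadd45b, Bcl2a1b, Cd200 and Dusp2), 1 AP-1 (Bcl2a1b) and 1 CRE (Nfkbid). Motifs of different kinds were counted separately, with no regard to overlap between them. A match in these letters is a description and no proof of binding. The promoters of Egr2 (chr10:67537316-67537615), Dusp5 (chr19:53528895-53529194), Nr4a1 (chr15:101266596-101266895) and Tagap (chr17:7925750-7926049), all on the plus strand, are shown because they give a CArG box or an EGR motif in genes that mark the signaled cells; capitals mark the motif, which in Nr4a1 and Tagap reads on the reverse strand and in Dusp5 is a pair of adjoining CArG boxes.
Egr2 promoter: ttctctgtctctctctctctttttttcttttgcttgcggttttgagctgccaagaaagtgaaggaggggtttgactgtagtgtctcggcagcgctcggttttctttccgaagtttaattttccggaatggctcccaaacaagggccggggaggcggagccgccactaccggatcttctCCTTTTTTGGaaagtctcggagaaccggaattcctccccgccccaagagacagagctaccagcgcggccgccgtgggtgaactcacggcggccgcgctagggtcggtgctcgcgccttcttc
Dusp5 promoter: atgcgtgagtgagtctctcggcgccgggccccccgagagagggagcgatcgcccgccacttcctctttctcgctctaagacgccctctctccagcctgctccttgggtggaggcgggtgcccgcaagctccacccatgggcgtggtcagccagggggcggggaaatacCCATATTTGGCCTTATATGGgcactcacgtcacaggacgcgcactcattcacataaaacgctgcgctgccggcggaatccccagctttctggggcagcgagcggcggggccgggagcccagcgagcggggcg
Nr4a1 promoter: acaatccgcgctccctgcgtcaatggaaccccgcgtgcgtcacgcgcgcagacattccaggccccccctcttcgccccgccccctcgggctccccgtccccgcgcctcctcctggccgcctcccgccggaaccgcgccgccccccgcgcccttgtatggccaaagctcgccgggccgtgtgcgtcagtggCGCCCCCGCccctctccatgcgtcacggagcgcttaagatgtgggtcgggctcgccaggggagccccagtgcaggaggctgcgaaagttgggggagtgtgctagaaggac
Tagap promoter: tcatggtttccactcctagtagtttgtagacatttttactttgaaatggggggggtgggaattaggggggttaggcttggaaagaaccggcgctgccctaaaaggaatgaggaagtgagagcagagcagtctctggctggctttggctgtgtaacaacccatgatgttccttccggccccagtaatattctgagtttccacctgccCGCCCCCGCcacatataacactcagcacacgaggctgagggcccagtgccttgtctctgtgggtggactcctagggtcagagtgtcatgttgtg

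Among NF-kB subunits and inhibitors, 9 of 12 list genes passed the filter. Of these, 3 were at least 1 log2 unit higher in all 4 libraries, none of them a subunit gene: Nfkbid, Nfkbia and Nfkbiz. The median of the 9 was 1.54. Nfkbid, which encodes the nuclear inhibitor IkB-NS, was at 162, 150, 336 and 160 CPM in signaled cells against 12.1 to 17.2 CPM (3.66 ± 0.59). Nfkbia, the classical inhibitor that NF-kB itself induces, was at 477, 475, 578 and 288 CPM against 137 to 184 CPM (1.46 ± 0.41). The subunit gene Rel was at 188, 122, 205 and 51.2 CPM against 25.2 to 34.2 CPM (2.02 ± 0.92), with the last library closest to its reference.

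AP-1 and other immediate-early genes were uneven. Of 18, 14 passed the filter and 3 were at least 1 log2 unit higher in every library: Ier2, the RNA-binding protein gene Zfp36l1 and the stress gene Gadd45b, with a list median of 1.06. Ier2 was at 464, 420, 336 and 422 CPM against 88.4 to 129 CPM (1.94 ± 0.21). Junb was at 875, 636, 373 and 627 CPM against 255 to 269 CPM (1.20 ± 0.48). Jun, in contrast, was at 439, 244, 37.3 and 141 CPM against 268, 262, 137 and 142 CPM (−0.31 ± 1.09), so its groups overlapped, and Fos was at 66.8, 106, 18.6 and 160 CPM against 13.1 to 33.8 CPM (1.66 ± 1.36). The 6 heat shock chaperones that passed the filter were above 0 in all 4 libraries with a median of 0.66, and none reached 1 log2 unit in each; the rule allowed at most 2 UMIs of Hspa1a and Hspa1b together.

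Of 13 MAP kinase and calcium feedback genes 6 passed the filter, and 3 were above 0 in all 4 libraries (median 1.08). The phosphatase genes Dusp2 and Dusp5 were at least 1 log2 unit higher in all 4. Dusp2 was at 697, 611, 541 and 377 CPM against 113 to 155 CPM (2.04 ± 0.23), and Dusp5 at 63.6, 50, 74.6 and 76.8 CPM against 11.7 to 17.9 CPM (2.16 ± 0.18). Signaled and reference libraries did not overlap in either. Orai1, the pore of the calcium channel that opens after receptor engagement, was at 146, 164, 317 and 173 CPM against 43.4 to 46.6 CPM (2.07 ± 0.51). Tagap, a GTPase-activating protein gene of activated T cells, was at 118, 161, 186 and 173 CPM against 10.1 to 12.7 CPM (3.64 ± 0.41). Proximal signaling genes (Lck, Zap70 and Lat among 13) had a median of 0.31 and none was 1 log2 unit higher throughout.

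Of 16 activation surface genes 15 passed the filter, and Cd69, Cd5, Tnfsf11 and Slamf1 were at least 1 log2 unit higher in each library (list median 1.26). Cd69, a C-type lectin that holds T cells in tissue, was at 935, 678, 298 and 473 CPM against 163, 155, 78.8 and 72 CPM (2.31 ± 0.36). In both classes its level was lower in the sh-B7-H3 (1) libraries. Cd5, an inhibitor whose level follows receptor signal strength, was at 283, 228, 280 and 230 CPM against 103 to 108 CPM (1.26 ± 0.19), and it was found in 80.4% of signaled cells. Tnfsf11, which encodes RANKL, was at 76.3, 41.7, 74.6 and 25.6 CPM against 2.95 to 5.44 CPM (3.27 ± 0.86). Cd40lg, the CD40 ligand of helper T cells, was at 169, 139, 55.9 and 173 CPM against 30.1 to 33.7 CPM (1.91 ± 0.80). Cd200, which restrains myeloid cells and was the 1 inhibitory receptor list gene higher in all 4 (of 4 that passed, median 1.42), was at 127, 50, 37.3 and 115 CPM against 8.15 to 8.91 CPM (2.94 ± 0.87).

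Of 8 induced transcription factors that passed the filter (16 listed, median 1.26), Myc, Nfatc1 and Id3 were at least 1 log2 unit higher in each library. Id3, an inhibitor of E proteins that EGR factors induce, was at 388, 428, 951 and 435 CPM against 78.4 to 95.3 CPM (2.56 ± 0.55). Myc, the driver of growth after activation, was at 143, 117, 242 and 122 CPM against 26.8 to 34.7 CPM (2.23 ± 0.57). Irf4, which scales with receptor signal strength, stayed under the filter and was found in 10 of 97 signaled cells (10.3%) against 1.1% of reference cells. The 14 growth and ribosome biogenesis genes had a median of 0.70, with 10 above 0 in all 4 libraries and none at 1 log2 unit in each. Further genes among the 20 farthest above reference cells were the survival gene Bcl2a1b at 522, 275, 746 and 326 CPM against 39.4 to 77.8 CPM (3.00 ± 0.60), the histone demethylase gene Kdm6b (2.39 ± 0.27), Hivep3 (3.13 ± 0.90) and Rilpl2 (3.02 ± 0.78). Bcl2a1b has near-identical copies, so its count is uncertain.

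Cytokine RNA was narrow. Of 16 cytokine and chemokine genes 9 passed the filter, and Tnf, Lta and Ccl4 were at least 1 log2 unit higher in each library (median 1.25). Within the CD4 lineage, however, Ccl4 was lower in signaled than in reference cells, as given below. Tnf, which T cells transcribe within the first hours, was at 105, 88.9, 74.6 and 115 CPM against 8.78 to 15.9 CPM (2.96 ± 0.34) and was found in 37 of 97 cells. Il2 had 15, 9, 0 and 6 UMIs and Ifng 7, 14, 0 and 13 UMIs, each in 6 cells (6.19%). Of reference cells 1.59% held Il2 and 1.97% Ifng. All 22 Il4 UMIs lay in 1 cell of sh-NC replicate 1. Another cell of that library, of the CD4 lineage, held 328 of the 343 Ccl1 UMIs, 158 of the 186 Xcl1 UMIs and 32 of the 34 Penk UMIs of all signaled cells. A cell of sh-B7-H3 (1) replicate 2 held 168 of 232 Ccl4 UMIs, 29 of 33 Ccl3 UMIs and 15 of 34 Tnfsf9 UMIs among its 3931 RNA UMIs. For these genes a library's level is mostly that of 1 cell.

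Cytolytic genes were not high: of 6 that passed the filter only Fasl reached 1 log2 unit in every library, and the list median was −0.41. Gzma, Gzmb, Gzmk and Gzmm, which encode granzymes, had no UMI in any signaled cell. The limit that this allows is 3 counts of the 884294 RNA UMIs, for counting error only. Gzmb and Gzmk were rare in reference cells too, each found in 188 of 11556 cells (1.63%). With so few signaled cells, the absence of Gzmb and Gzmk does not separate the classes. Gzma and Gzmm also fell under the 20 CPM filter, and their absence is not read as a difference. Cells with much Ccl5, the RNA of effector cells, had been left out by the rule. Among 12 resting genes none was 1 log2 unit lower in each library, and 5 were below 0 in all 4 (median −0.33). Klf2, a quiescence factor that keeps T cells circulating, was at 305, 297, 131 and 173 CPM against 437, 431, 344 and 359 CPM (−0.87 ± 0.42), and S1pr1, the receptor for egress that Klf2 induces, at 98.6, 128, 55.9 and 70.4 CPM against 172 to 180 CPM (−1.05 ± 0.50). The signaled libraries lay below the reference libraries for both.

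The genes farthest below reference cells were mostly not T cell genes. Apoe, C1qa, C1qb, Lyz2 and the class II genes H2-Aa, H2-Ab1 and H2-Eb1 are expressed by myeloid cells, and Hbb-bs by red blood cells. Apoe was at 3.18, 2.78, 0 and 25.6 CPM in signaled cells against 125, 115, 685 and 587 CPM, and H2-Aa had no UMI against 18.4 to 134 CPM in reference cells. Reference cells carried a doublet score more often, as given above, and the part of doublets in the difference was not tested. Tent5a and Ly6c2 complete the 10, and Ly6c2, a surface protein of resting and memory CD8+ T cells, was at 47.7, 30.6, 0 and 70.4 CPM against 137 to 200 CPM.

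**Figure D2:**
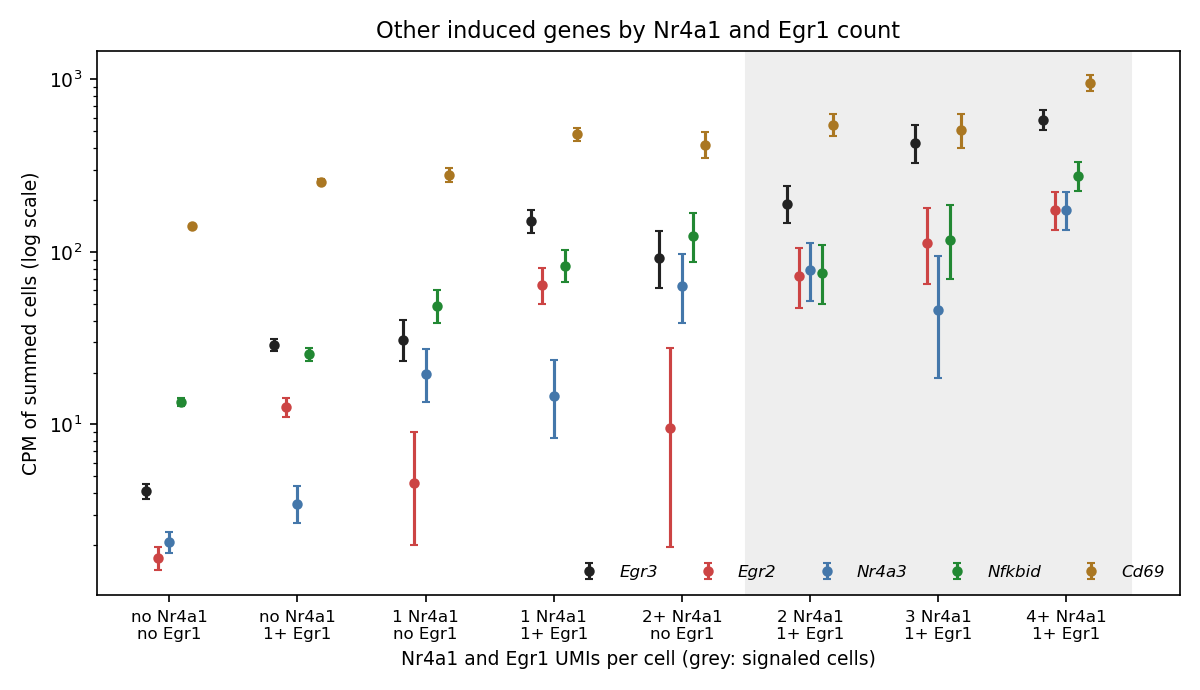
Summed CPM (log scale) of Egr3, Egr2, Nr4a3, Nfkbid and Cd69 in eligible cells grouped by their Nr4a1 and Egr1 UMIs, with exact 95% Poisson intervals for counting error; the grey area holds the signaled cells. Egr3 goes from 4.11 CPM without either gene to 581 CPM at 4 or more Nr4a1 UMIs, and Nr4a3 and Egr2 change order between cells with Nr4a1 alone and cells with 1 Nr4a1 UMI and Egr1.

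Within the signaled cells companion RNA was highest where Nr4a1 was highest. Over cells with 2, 3 and 4 or more Nr4a1 UMIs (38, 19 and 40 cells), Egr3 stood at 190, 427 and 581 CPM, Egr2 at 72.5, 112 and 174 CPM, Nfkbid at 75.3, 118 and 276 CPM, Nr4a3 at 78.1, 46 and 174 CPM and Cd69 at 547, 506 and 950 CPM. Klf2 went the other way, at 360, 282 and 174 CPM. For each of these genes at least 1 pair of neighboring bins overlaps in exact 95% Poisson intervals: the lower pair for Nfkbid, Nr4a3 and Cd69, the upper pair for Egr3, and both pairs for Egr2 and Klf2. Cells were summed over libraries that enter the bins unequally, with 17, 16, 2 and 3 cells at 2 Nr4a1 UMIs, 5, 7, 0 and 7 at 3, and 13, 15, 4 and 8 at 4 or more, and the part of this mix was not tested. Median depth was 8229, 7810 and 9218.5 UMIs in the 3 bins.

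Outside the signaled gate Nr4a3 and Egr2 differed in their order, while Egr3 was present beside either gene. Cells with Nr4a1 at 2 or more but no Egr1 had Nr4a3 at 63.2 CPM (exact 95% Poisson interval 38.6 to 97.7) and Egr2 at 9.48 CPM (1.96 to 27.7), with Egr3 at 91.7 CPM (61.4 to 132). The Nr4a3 level there rests on 20 UMIs in 7 of 38 cells. Cells with 1 Nr4a1 and at least 1 Egr1 UMI had the reverse, with Nr4a3 at 14.7 CPM (8.38 to 23.8) and Egr2 at 64.1 CPM (50 to 81), with Egr3 at 151 CPM (129 to 176). Both sets differ in Nr4a1 count as well as in Egr1. In 209 cells with 1 Nr4a1 UMI and no Egr1, Egr2 stood at 4.6 CPM (1.99 to 9.06). Their Nr4a3 interval, 13.5 to 27.3 CPM, overlapped that of cells with 1 Nr4a1 UMI and Egr1. At 1 Nr4a1 UMI, of Egr2 and Nr4a3, only Egr2 thus differed with Egr1. These intervals cover counting error only. Among signaled cells with 1 or 2, 3 to 5 and 6 or more Egr1 UMIs, again summed over libraries, Egr2 stood at 41.8, 68.6 and 239 CPM, Egr3 at 148, 246 and 746 CPM, and Nr4a3 at 122, 84.8 and 126 CPM.

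Most signaled cells carried more than 1 companion. Of Egr2, Egr3, Nr4a3 and Nfkbid, 15 signaled cells held all 4, 26 held 3, 28 held 2, 15 held 1 and 13 held none. At least 2 were present in 71.1% of signaled cells and in 1% of reference cells. These 4 genes rank farthest above reference cells in these same cells. The difference therefore follows in part from that ranking and is a description. After thinning each cell to 2000 UMIs Egr3 was found in 42.3% of 97 signaled cells against 0.668% of 11227 reference cells (71.1 and 2.26% unthinned), and Cd69 in 60.8 against 20.8% (89.7 and 48.8% unthinned).

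Lineage was called from RNA: CD4 cells held a Cd4 UMI and no Cd8a or Cd8b1, and CD8 cells at least 2 Cd8 UMIs and no Cd4. Of the 97 signaled cells 41 were CD4 and 23 CD8, 3 held Cd4 and at least 2 Cd8 UMIs, and 30 met none of these definitions, some of them with Cd4 and 1 Cd8 UMI. Among cells of 1 lineage, CD4 cells made up 75, 54.2, 75 and 50% of signaled cells and 36.3, 35.1, 38.5 and 38.7% of reference cells. The share was higher in signaled cells in 4 of 4 libraries, by a mean of 26.4 ± 13.4 points (SD, n = 4), with an exact sign-flip permutation p of 0.125 (two-sided), the smallest that 4 libraries allow. In sh-B7-H3 (1) replicate 1 the share rests on 4 cells. With lineage taken from the CD4 and CD8b tags the difference was 19.6 ± 7.27 points, again in 4 of 4 libraries.

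Both lineages carried the core genes. Egr3 was at 364 CPM (exact 95% Poisson interval 305 to 430) over CD4 and 298 CPM (233 to 376) over CD8 signaled cells, Egr2 at 142 and 113 CPM, Nfkbid at 158 and 126 CPM and Cd69 at 711 and 790 CPM. Tnfsf11 was at 104 CPM in CD4 and 8.41 CPM in CD8 cells, and Cd40lg at 214 and 54.6 CPM. Tnfsf11 and Cd40lg were also higher in CD4 than CD8 reference cells (7.74 against 0.736 CPM, and 60.9 against 3.94 CPM), so that the log2 ratio of signaled over reference cells for Cd40lg was 1.79 in CD4 and 3.49 in CD8 cells. Il2 was at 45.4 and 4.2 CPM, with all 17 CD4 UMIs in 2 cells. Nr4a3 was at 123 CPM (90 to 164) in CD4 and 46.2 CPM (23.1 to 82.7) in CD8 cells. Ccl4 was at 206 CPM in CD8 and 34.7 CPM in CD4 cells, with 21 and 20 of the 49 CD8 UMIs in 1 cell each. In reference cells Ccl4 was at 9.66 CPM in CD8 and 88.4 CPM in CD4 cells, so the CD4 lineage went the other way. Klf2 was at 403 CPM in CD8 signaled cells, near the 418 CPM of CD8 reference cells, against 208 and 412 CPM in CD4 cells. Differences between lineages were not tested, since cells were summed over libraries.

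No surface tag passed the test between the classes in the way that RNA differed. Of 197 tags tested between signaled and reference cells with edgeR's quasi-likelihood test (library as a block), 0 were called at an adjusted p under 0.05 and a log2 fold change of at least 0.5 (background 0% called), while 26 had an unadjusted p under 0.05. DESeq2 called 3: CD11b at −0.84, CD24 at −1.07 and CD278 (ICOS) at 0.53, which edgeR gave as −0.86, −1.06 and 0.52 with adjusted p of 0.113, 0.142 and 0.113. CD36 was the 1 tag with an adjusted p under 0.05 in edgeR (−0.48, SE 0.06, adjusted p 0.0474), below the size limit, and was lower in 4 of 4 libraries.

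**Figure D3:**
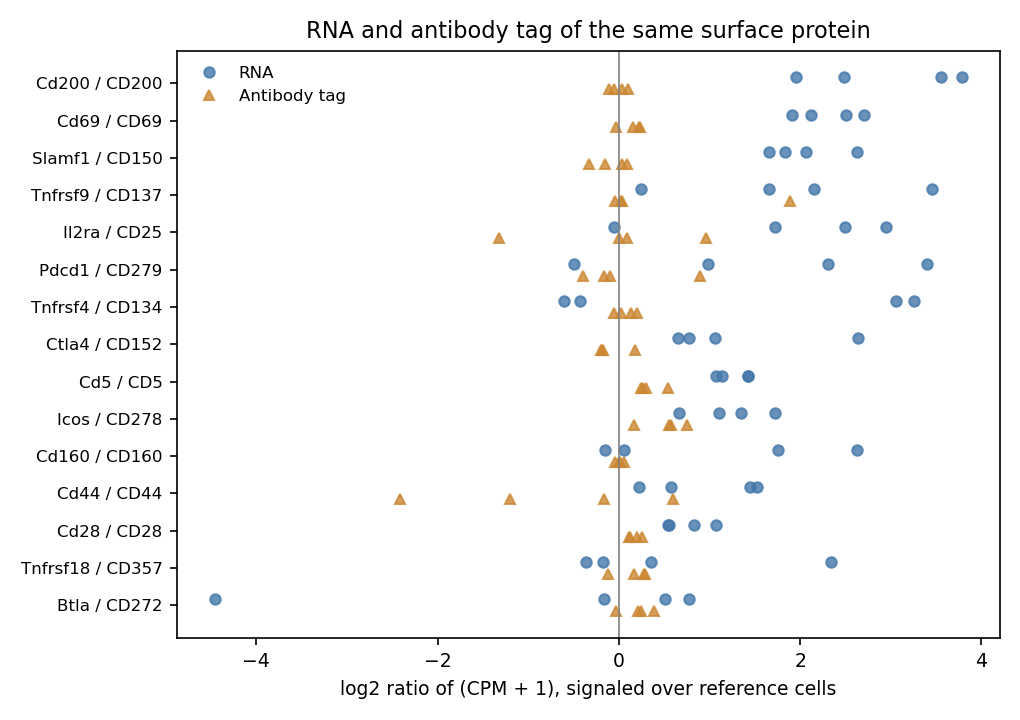
Log2 ratio of (CPM + 1) in signaled over reference cells for the RNA (circles) and the antibody tag (triangles) of 15 surface proteins, 1 point per library. Cd69 RNA lies between 1.91 and 2.70 and its tag between −0.03 and 0.23.

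The CD69 tag was at 4048, 3759, 6690 and 5459 CPM of tags in signaled cells and at 3445, 3368, 5758 and 5567 CPM in reference cells (log2 fold change 0.18, SE 0.07, edgeR adjusted p 0.315). Against a mean log2 ratio of 2.31 in RNA, the tag was higher in 3 of 4 libraries. CD5 was 0.38 higher (SE 0.08, adjusted p 0.123) and T cell receptor beta 0.36 higher (SE 0.09, adjusted p 0.142). Among 15 proteins of the activation and inhibitory lists with RNA over the filter, the mean RNA ratio exceeded the mean tag ratio in 14, and RNA was above the tag in all 4 libraries for 9. The median was 1.28 for RNA and 0.08 for tags. The cells were chosen on RNA, so this gap is a description with no test. The CD44 tag, with a mean of −0.79, rests on few UMIs in signaled cells, as given below. The part of antibody background in low tags was not tested. CD200 shows the gap most plainly, at 2.94 ± 0.87 in RNA and −0.01 ± 0.09 in the tag.

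The share of signaled cells among eligible cells overlapped between the groups. It was 0.59 and 0.801% of eligible cells in sh-NC (exact 95% binomial intervals 0.411 to 0.819 and 0.567 to 1.1%) and 0.404 and 0.882% in sh-B7-H3 (1) (0.148 to 0.877 and 0.524 to 1.39%). The means were 0.695 ± 0.149% and 0.643 ± 0.338% (SD, n = 2 libraries each), a ratio of 0.925 (SD 0.525) with an exact two-sided permutation p of 1, where the smallest p that 2 against 2 allow is 0.333. The replicates of sh-B7-H3 (1) lay farther apart than the groups, and the ratio was 0.581 without its replicate 2 and 1.27 without its replicate 1.

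**Figure D4:**
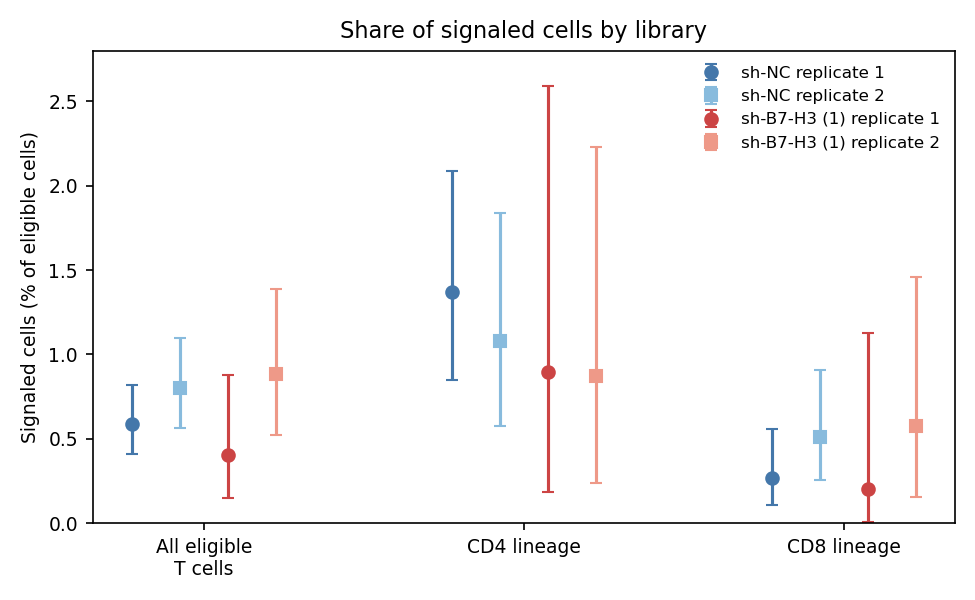
Signaled cells as a percentage of eligible cells, for all cells and within the CD4 and CD8 lineages, 1 point per library with exact 95% binomial intervals for counting error. The libraries of both groups overlap for all cells, and in the CD4 lineage the means are 1.23% in sh-NC and 0.885% in sh-B7-H3 (1).

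Lineages were then taken apart. In the CD4 lineage the share was 1.23 ± 0.205% in sh-NC and 0.885 ± 0.0143% in sh-B7-H3 (1) (SD, n = 2 each), and an exact permutation p of 0.333, the smallest possible. The latter values rest on 3 of 335 and 4 of 457 cells, and their exact 95% binomial intervals (0.185 to 2.59 and 0.239 to 2.23%) span both sh-NC values of 1.37 and 1.08%. In the CD8 lineage it was 0.39 ± 0.169% and 0.389 ± 0.261%. The denominator matters: over all cells that passed the gene, mitochondrial and CD3 limits, including Ccl5-high, Foxp3+ and heat shock cells, the share was 0.466 and 0.613% in sh-NC and 0.178 and 0.401% in sh-B7-H3 (1). There the groups did not overlap, with a ratio of 0.537 (SD 0.31) and an exact permutation p of 0.333, the smallest possible. The signaled cells counted were the same, while eligible cells were 5934 of 7509 and 4744 of 6202 in sh-NC. They were 1485 of 3369 and 2040 of 4490 in sh-B7-H3 (1), so the wider denominator lowers the sh-B7-H3 (1) share more. With the Ccl5 limit lifted for signaled and eligible cells alike, the groups overlapped, at 0.545 and 0.737% against 0.244 and 0.566%.

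Between the groups, signaled cells differed in few genes. Of 2722 genes tested in UMI sums of signaled cells, edgeR's quasi-likelihood test called 6 higher (0.22%) and 1 lower (0.0367%) in sh-B7-H3 (1), 0.257% in all, and 183 had an unadjusted p under 0.05. None of the companion factors was among them: Egr3 gave a log2 fold change of 0.47 (SE 0.25, adjusted p 0.797), Egr2 0.18 (SE 0.38, adjusted p 0.987), Nr4a3 0.47 (SE 0.51, adjusted p 0.94) and Nfkbid 0.49 (SE 0.31, adjusted p 0.864). Cd69 gave −0.94 (SE 0.26, adjusted p 0.314) and Jun −1.58 (SE 0.39, adjusted p 0.188). The 13 activation surface, 9 NF-kB and 14 AP-1 list genes tested had medians of 0.01, 0.16 and −0.28 beside −0.01 over all genes, and no member of these lists is among the 7. The 11 resting genes tested had a median of −0.62 with 1 called lower (Ly6c1), the 14 growth genes 0.51, the 3 NR4A and EGR genes 0.47 and the 7 cytokine genes 0.05 with 1 called higher (Ccl4). Leaving out 1 library gave 10 to 33 calls, the most without sh-B7-H3 (1) replicate 2.

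Lars2, Gm42418 and AY036118 separated the groups in signaled and in reference cells. Lars2, which encodes the mitochondrial leucyl-tRNA synthetase, was at 105, 111, 541 and 525 CPM in signaled cells (log2 fold change 2.30, SE 0.26, edgeR adjusted p 5.92e-05) and at 116, 138, 558 and 552 CPM in reference cells. Gm42418 and AY036118, transcripts of ribosomal RNA repeat sequence that fall outside the rule for naming genes and are named after their values were seen, gave 2.56 and 2.21; Gm42418 was at 4334 to 4767 and 24407 to 29817 CPM in signaled cells and at 5106 to 5142 and 29490 to 30300 CPM in reference cells. Ccl5 is among the 6 genes called higher, but the rule limits it in both classes, so its values are a description: it was at 22.3, 19.4, 112 and 198 CPM in signaled cells, 50.2 to 57.7 and 297 to 321 CPM in reference cells, and 1212 to 1417 and 4279 to 4741 CPM outside cells. Without sh-NC replicate 1 or 2, Gm42418 kept its size (2.53 and 2.52) but not its call (adjusted p 0.425 and 0.485). Myeloid markers in signaled cells were also higher in sh-B7-H3 (1), as given above, and the part of free RNA in these differences was not tested.

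**Figure D5:**
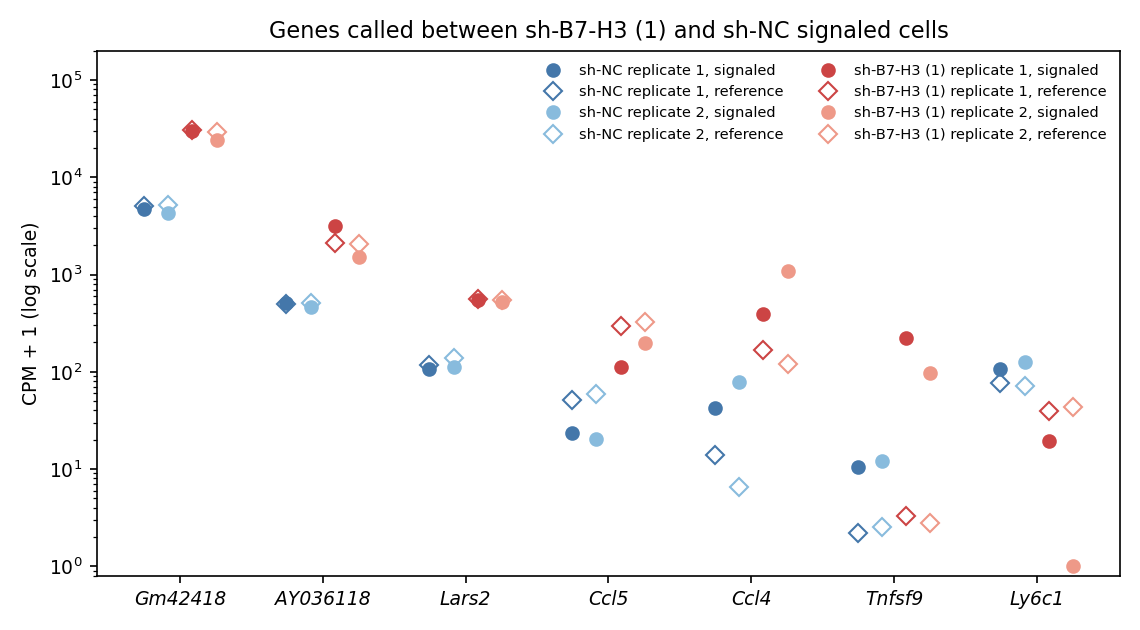
CPM + 1 (log scale) of the 7 genes called between the groups, in signaled (filled circles) and reference cells (open diamonds) of each library. Gm42418, AY036118 and Lars2 differ between the groups in both classes, while Tnfsf9 lies between 1.21 and 2.31 CPM in the reference cells of all 4 libraries.

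Ccl4 and Tnfsf9 rested on single cells. Ccl4, a chemokine, had 13, 28, 21 and 170 UMIs (log2 fold change 3.75, SE 0.41, adjusted p 5.92e-05), of which 1 cell held 21 of 21 and 1 cell 168 of 170 in the sh-B7-H3 (1) libraries. With cells scored as doublets left out it gave 1.02 (adjusted p 0.9), and without the upper gene limit 0.23 (adjusted p 0.966). Tnfsf9, the ligand of CD137, had 3, 4, 12 and 15 UMIs (3.66, SE 0.60, adjusted p 0.00378), with 9 of 12 and 15 of 15 in 1 cell each. Ly6c1, a surface protein of resting cells, was the 1 gene called lower, with 33, 45, 1 and 0 UMIs (−4.40, SE 0.84, adjusted p 0.0216); 28 of 97 cells held it, and it was also lower in reference cells, at 76.5 and 70.1 against 38.2 and 42.1 CPM. The Ly6c1 call was lost at about the same size in DESeq2 (−4.42, adjusted p 0.942), with doublets left out (−4.37, adjusted p 0.103) and without a low-count filter (−4.55, adjusted p 0.106). It was also lost without the upper gene limit, at the far smaller size of −1.0 (adjusted p 0.292), and without sh-NC replicate 2 (−4.16, adjusted p 0.33) and without sh-B7-H3 (1) replicate 2 (−2.77, adjusted p 0.28).

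Among surface tags, Ly-6C was lower and CD22 higher in sh-B7-H3 (1), with and without TMM scaling. Of 196 tags tested, edgeR called 3 higher (1.53%) and 6 lower (3.06%) in sh-B7-H3 (1), 4.59% in all. Ly-6C was at 15493, 14610, 5611 and 7830 CPM of tags (log2 fold change −1.65, SE 0.17, adjusted p 0.000829), and at 17922, 18803, 9501 and 11835 CPM in reference cells. CD22, a B cell lectin, was at 198, 147, 1122 and 777 CPM (1.89, SE 0.29, adjusted p 0.0052) and at 218, 220, 779 and 818 CPM in reference cells. The 9 isotype control tags, a measure of background, together made up 2954, 2801, 4489 and 5265 CPM in signaled cells, also higher in sh-B7-H3 (1). The part of such background in low tags like CD22 and CD44 was not tested. CD198 (CCR8) at 1.19 and CD79b at 1.02 were the other higher tags, and CD44 at −2.06, CD45 at −1.16, Ly-6A/E at −1.06, ESAM at −1.04 and CD270 (HVEM) at −1.02 the other lower ones. DESeq2 called 5 tags, all lower, and gave no adjusted p for the 3 higher tags or CD44. Fits that leave out 1 library compare 1 library with 2, and the lone one is assumed to vary like the other group. In them CD198 lost the call without sh-B7-H3 (1) replicate 1 or 2 (1.18 and 1.20, adjusted p 0.055 and 0.114), and so did CD44 (−1.81 and −2.91, adjusted p 0.133 and 0.175), which was not tested without sh-NC replicate 1. Other tags passed under the size limit with an adjusted p still below 0.05: CD79b without sh-NC replicate 1 (0.91) or sh-B7-H3 (1) replicate 1 (0.82), ESAM and CD270 without sh-NC replicate 2 (−0.95 and −0.89) or sh-B7-H3 (1) replicate 1 (−0.88 and −0.96), and Ly-6A/E without sh-B7-H3 (1) replicate 2 (−0.89). CD45 was likewise not called without sh-B7-H3 (1) replicate 2. ESAM was at 2296, 2534, 1338 and 1904 CPM, but at 1705, 1686, 2011 and 2027 CPM in reference cells. CD44 rested on 53, 31, 1 and 5 UMIs, and stood at 198, 197, 233 and 224 CPM in reference cells. Whether these tags differ between the classes in their group difference was not tested.

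The split of the tag calls depended on scaling. Without TMM factors 22 tags were higher and 1 lower, and the median tag moved from 0.04 to 0.54; the 3 higher tags and Ly-6C (−1.14) kept their calls. The other 5 lower tags kept their direction and lost theirs, CD45 at −0.66, CD270 at −0.51, Ly-6A/E at −0.56 and ESAM at −0.53 by size, and CD44 at −1.56 by its adjusted p of 0.0672. In that fit 3 of 9 isotype control tags, which bind no mouse protein, were called higher. Isotype tags made up 2954, 2801, 4489 and 5265 CPM of tags in signaled cells and 2917, 3128, 4747 and 4811 CPM in reference cells. The CD90.2 tag alone took 424881, 440450, 306371 and 321152 CPM. Tag UMIs per signaled cell were 5040, 4642, 3861 and 2860.

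The difference of the knockdown effect between signaled and reference cells was tested as an interaction. Of 10217 genes 6 were called (0.0587%), all with a lower effect in signaled cells, and 417 had an unadjusted p under 0.05; DESeq2 called 0, with 139 under that p. The 6 were Ccl1, Xcl1, Nrgn, S100a4, Nr4a2 and Pdcd1. Pdcd1, which encodes PD-1, had 27, 13, 1 and 8 UMIs, or 85.9, 36.1, 18.6 and 51.2 CPM in signaled cells against 7.22, 6.47, 26.5 and 25.4 CPM in reference cells, so that the groups overlapped in signaled cells and sh-B7-H3 (1) was higher in reference cells. In DESeq2 the size was kept for Pdcd1 (−2.65), Nr4a2 (−4.73) and S100a4 (−1.75). Leaving out sh-NC replicate 1 left 0 calls (173 at an unadjusted p under 0.05), with Nr4a2 at −4.74, Pdcd1 at −2.03 and S100a4 at −1.02, leaving out sh-B7-H3 (1) replicate 1 left Ccl1 (−10.72, adjusted p 0.0449), and without sh-B7-H3 (1) replicate 2 none of the 6 was called (adjusted p 0.931 each), with Nr4a2 and Pdcd1 both at −4.09 and S100a4 at −1.11.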

How the data were processed

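Per the labels and methods, the authors sequenced 10x 3' RNA and antibody-tag libraries, aligned them to mm10 and made the deposited UMI counts per gene or tag and barcode with Cell Ranger; their notes also name Seurat 4.0.0. Raw counts of 4 libraries were used here: 32285 genes and 197 named tags (1 unnamed tag was left out). Called barcodes held 79224898 to 132820909 RNA UMIs per library, and this depth over few cells limits rare genes. Intervals cover counting error only.

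Signaled and reference cells were picked by the limits in the text, and their counts were summed per library. RNA of the classes was compared on log2(CPM + 1), without a test. The knockdown, tag and interaction contrasts were fitted across all features with the edgeR 4.0.16 quasi-likelihood test (TMM scaling, filterByExpr, Benjamini-Hochberg adjustment) in R 4.3.3; the call needed an adjusted p under 0.05 and a log2 fold change of at least 1 (0.5 for tags between classes). DESeq2 1.42.0 was an alternative, and scripts were tested on simulated data. Shares were compared by exact permutation. Doublets were scored by neighbors of simulated doublets (Python 3.11.15, scikit-learn 1.9.0) and removed only in an alternative.

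Named genes were the markers and list genes; between classes, the 20 genes whose lowest log2 ratio of the 4 libraries was highest and the 10 whose highest was lowest, at 50 CPM or more in signaled or, for lower genes, reference cells; between groups, up to 10 called genes each way averaging 50 CPM or more with no overlap between groups; and called tags, up to 8 each way. Mitochondrial, ribosomal protein, receptor segment, Gm42418 and AY036118 genes were left out of these ranks. Interaction genes, Nab2 and genes held mostly by 1 cell were named after their values were seen. The members and lists were chosen with earlier results of these data known. Alternatives changed the cell limits, scaling, filter, tool and libraries. A few marker and state results are not reported here.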

Additional observations from a re-analysis of the deposited data

Results flagged for a closer look

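In 6 genes the knockdown effect differed between signaled and reference cells by the edgeR interaction test (log2 difference, signaled minus reference cells). Pdcd1, which encodes PD-1, gave −2.56 (adjusted p 0.0438) on 27, 13, 1 and 8 UMIs in signaled cells, and Nr4a2 gave −4.73 (adjusted p 0.0438) on 12, 7, 1 and 1. Ccl1 gave −7.82 (adjusted p 2.18e-24) and Xcl1 −5.95 (adjusted p 5.59e-13), with 328 of 343 and 158 of 186 UMIs in the same sh-NC replicate 1 cell. S100a4 gave −1.88 (adjusted p 0.00419), with 23 of 94 UMIs in that cell. In each library 1 cell held much of its S100a4, at 23 of 48, 17 of 20, 14 of 14 and 10 of 12 UMIs. Nrgn gave −15.32 (adjusted p 9.66e-06), where all 36 UMIs lay in sh-NC replicate 1, 25 of them in 1 cell, and the fitted value is no bound. DESeq2 called 0 genes, with 139 at an unadjusted p under 0.05; there Pdcd1 was −2.65, Nr4a2 −4.73 and S100a4 −1.75, while Ccl1, Xcl1 and Nrgn shrank to −4.07, −3.64 and −5.43.

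A tag row without a name, which entered no comparison, held 0.266% of tag UMIs.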

How the results depend on the processing

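The share ratio stayed within its spread in 11 alternatives (0.537 to 1.27) and was 1.53 with the rule applied after thinning, on 18 cells. The 7 genes called between the groups became 18 without the upper gene limit, 16 without the Ccl5 limit, 4 without doublets, 4 after thinning, 3 in CD4 and 1 in CD8 cells alone, 18 with at least 1 UMI of Nr4a1 and Egr1 (chosen after seeing the data), and 10 to 33 leaving out 1 library. The 9 tags between the groups became 23 without TMM factors and 5 in DESeq2, and 6 to 10 leaving out 1 library. The 0 tags between classes became 3 in DESeq2, 5 in CD8 cells and 1 without doublets, and 0 to 1 leaving out 1 library (1, CD11b at −0.99, without sh-B7-H3 (1) replicate 1). The 6 interaction genes became 0 in DESeq2. Without the low-count filter 4 were called, losing Pdcd1 and Nr4a2. With doublets left out 9 were called, among them Pdcd1 but not Nr4a2. Without sh-NC replicate 1, Ccl1 and Xcl1 turned to 7.23 and 7.43, against lowest values of −10.72 and −17.59 without sh-B7-H3 (1) replicate 1. The 41 genes higher in signaled cells became 19 in CD8 cells, 26 at a mean of 50 CPM or more, and 48 to 68 leaving out 1 library (added after seeing the data). The CD4 share kept its direction throughout (19.6 to 31.4 points). With the replicate number as a block, 6 genes and 6 tags were called, losing Ly6c1 (adjusted p 0.136), CD198, CD79b and CD44 (adjusted p 0.0613, 0.0622 and 0.0873); same-numbered libraries correlated at 0.0724 over 2722 genes, and share only a number. The cause of these shifts was not tested. Leaving out a library takes the spread from the other group alone in fits between groups, so calls kept there say little of stability. The 6 signaled cells of sh-B7-H3 (1) replicate 1 limit every group comparison.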
